A study of Arabidopsis thaliana with 6 samples.

Results

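Transcripts of 7 MYB transcription factors that switch on suberin genes and of 3 ABCG transporters that export suberin were followed in callus of Arabidopsis thaliana by bulk RNA-seq. The 10 genes, of 36793 loci in the deposited tables, were taken by locus identifier: MYB9 (AT5G16770), MYB39 (AT4G17785), MYB41 (AT4G28110), MYB53 (AT5G65230), MYB92 (AT5G10280), MYB93 (AT1G34670), MYB107 (AT3G02940), ABCG2 (AT2G37360), ABCG6 (AT5G13580) and ABCG20 (AT3G53510). All 10 locus identifiers carried these names in RefSeq. Both groups were callus of the accession Col-0, the standard laboratory strain, raised from leaf explants of 2-week-old seedlings on callus-inducing medium, with no mutation or further treatment named. One group of 3 libraries was collected after 7 days of culture and the other group of 3 after 12 days, and no uncultured leaf was analysed here. The series calls the libraries biological replicates but does not say whether plants or plates differed between them, so the p-values measure only the spread between these libraries.

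Suberin is a polyester of fatty acids, glycerol and ferulate laid down between the plasma membrane and the cell wall, where it limits the passage of water and solutes. It coats the root endodermis after the Casparian strip has formed, the periderm, the seed coat and tissue around wounds. MYB factors bind promoters of the enzyme genes that make its monomers, and half-size transporters of the ABCG family carry suberin components across the plasma membrane. MYB41 and MYB39 drive suberin synthesis in the endodermis when present in excess, MYB9 and MYB107 are known for the seed coat, and MYB53, MYB92 and MYB93 act in root suberin. ABCG2, ABCG6 and ABCG20 are required for normal suberin barriers of roots and seed coats.

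The tables held 4927953 to 10746277 counts per library, the shallowest being day 12 replicate 3. Counts were expressed as CPM, scaled to library size with TMM factors, and 3 counts stand for 0.279 to 0.609 CPM. Ribosomal RNA loci took 0.121% of the counts in day 7 replicate 2 and 3.90% in day 12 replicate 3. In the deposited TPM, a unit that also corrects for transcript length, they took from 1.67% in day 7 replicate 2 to 30.7% in day 7 replicate 1, so TPM was used for the order of genes within a library. A gene was said to rise or fall where edgeR's quasi-likelihood test gave a Benjamini-Hochberg adjusted p under 0.05 over the 18364 genes that passed a filter on low counts. Of these genes, 12.7% rose and 12.5% fell between day 7 and day 12.

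Of the 10 members 6 fall into pairs of near relatives, and the upstream sequences of MYB9 and MYB107 are shown because they gave the highest upstream alignment score among the members. The coding sequences of MYB9 and MYB107 were identical at 83.8% of 949 aligned bases, those of MYB53 and MYB92 at 81.9% of 888, and those of ABCG2 and ABCG20 at 82.2% of 2208. All other MYB pairs lay between 64.2% and 70.0%, and ABCG6 matched ABCG2 at 69.7% and ABCG20 at 69.5%. None of the 50-base words of the 10 genes' exons occurred elsewhere in the genome. In the RefSeq annotation of TAIR10.1 the MYB genes have 3 coding exons each and the ABCG genes 1. The genes lie at chr5:5514717-5517153 on the plus strand (MYB9), chr4:9881599-9883432 minus (MYB39), chr4:13968029-13969525 minus (MYB41), chr5:26068112-26069652 plus (MYB53), chr5:3232569-3234277 plus (MYB92), chr1:12709090-12710665 plus (MYB93), chr3:661849-664011 plus (MYB107), chr2:15673410-15675920 minus (ABCG2), chr5:4370692-4373201 plus (ABCG6) and chr3:19837148-19839983 minus (ABCG20).

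The 250 bases before the annotated starts of MYB9 (chr5:5514467-5514716, plus strand) and MYB107 (chr3:661599-661848, plus strand) follow, 5′ to 3′, from RefSeq TAIR10.1, with capitals for bases identical to the other gene in their best local alignment.
MYB9: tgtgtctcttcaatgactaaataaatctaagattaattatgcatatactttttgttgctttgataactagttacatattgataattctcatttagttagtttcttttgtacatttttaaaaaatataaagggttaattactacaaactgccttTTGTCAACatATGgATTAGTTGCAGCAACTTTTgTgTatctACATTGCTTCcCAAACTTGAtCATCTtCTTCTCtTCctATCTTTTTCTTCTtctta
MYB107: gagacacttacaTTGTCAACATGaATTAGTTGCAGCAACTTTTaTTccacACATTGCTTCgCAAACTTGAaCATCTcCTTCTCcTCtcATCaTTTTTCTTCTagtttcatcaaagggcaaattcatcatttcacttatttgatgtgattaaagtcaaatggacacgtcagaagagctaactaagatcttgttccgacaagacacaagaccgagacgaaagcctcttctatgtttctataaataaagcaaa
The aligned stretch ran from 97 to 6 bases before the start of MYB9 and from 238 to 149 bases before that of MYB107, with 77 of 89 aligned bases identical (86.5%). Its alignment score was 114, and that of MYB53 with MYB92 was 113, with 112 of 141 bases identical (79.4%). The other 43 of the 45 pairs of the 10 genes scored 18 to 44. ABCG2 with ABCG20, the third related pair by coding sequence, scored 25, within that range.

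MYB92 was the most abundant of the 7 MYB regulators and rose about 3-fold. Its counts were 67, 147 and 104 on day 7 and 356, 387 and 135 on day 12, or 9.10, 13.2 and 11.5 CPM against 36.25, 36.9 and 28.5 CPM. Every day 12 library stood above every day 7 library. The mean went from 11.25 ± 2.05 to 33.9 ± 4.66 CPM (SD, n = 3 per day), a log2 change of 1.59 ± 0.17 (SE, edgeR's quasi-likelihood test, Benjamini-Hochberg adjusted p = 0.00143). In these bulk libraries, more cells with a transcript and more of it per cell cannot be told apart, here or below. MYB92 shares 155 bases on the same strand with the noncoding RNA gene AT5G10278, and reads from the shared stretch cannot be told apart. AT5G10278 had 28, 54 and 43 counts on day 7 and 133, 83 and 57 on day 12. It rose as well, with a log2 change of 1.31 (edgeR's quasi-likelihood test, adjusted p = 0.00776).

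MYB93, which in roots also restrains lateral root development, rose from 0.272, 1.34 and 0.442 CPM to 1.94, 2.86 and 2.54 CPM. The libraries of the days did not overlap, but the counts were low, at 2, 15 and 4 on day 7 and 19, 30 and 12 on day 12. The log2 change was 1.72 ± 0.55 (edgeR's quasi-likelihood test, adjusted p = 0.0482). The call was lost without day 7 replicate 1 or 3 (adjusted p = 0.141 and 0.145) and without day 12 replicate 1, 2 or 3 (0.0852, 0.126 and 0.0919). Without day 7 replicate 2, which held 15 of the day 7 counts, the log2 change was 2.696 (adjusted p = 0.0222).

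MYB53, the near relative of MYB92, stood at 0.679, 1.17 and 0.663 CPM on day 7 and at 0.815, 3.15 and 1.27 CPM on day 12. Day 12 replicate 2 was the highest library by far, and day 12 replicate 1 lay below day 7 replicate 2. The log2 change of 1.06 ± 0.59 did not pass the test (edgeR's quasi-likelihood test, adjusted p = 0.214), and without day 12 replicate 2 it was 0.22 (adjusted p = 0.840). MYB53 shares 57 bases on the same strand with AT5G65225, which had 4 to 14 counts per library.

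The other 4 MYB genes had too few counts for the test. MYB107 had 0, 1 and 0 counts on day 7 and 10, 38 and 3 on day 12, or 1.02, 3.62 and 0.634 CPM on day 12. All day 12 libraries lay above all day 7 libraries, and the ratio of CPM from the pooled counts was 56.2, with a 95% counting interval from 9.64 to 2261. Such exact intervals cover counting error only and not the spread between cultures. Without day 12 replicate 2, which held 38 of the counts, the ratio was 24.6 (3.70 to 1047). With no filter on counts, edgeR gave a log2 change of 5.21 ± 1.07 for MYB107 (adjusted p = 0.00467). The limma test on log2(TPM + 1) gave an adjusted p of 0.0205, but 0.0851 with a pseudocount of 0.1, 0.140 with no filter on TPM and 0.0622 with TPM rescaled without ribosomal RNA loci.

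MYB9, the relative of MYB107, had 0 counts in every day 7 library and 7, 51 and 1 on day 12, or 0.713, 4.86 and 0.211 CPM. All 3 day 12 libraries were above 0, and replicate 2 held 51 of the 59 counts. Set against a limit of 3 counts for the 3 day 7 libraries together, MYB9 was 21.7-fold higher on day 12, and 5.05-fold higher without day 12 replicate 2. The limit covers counting error on day 7 only. The day 12 counts were taken as exact, so these folds are not lower bounds. With no filter its adjusted p was 0.0858 by edgeR and 0.422 by limma on log2(TPM + 1). With no filter and the replicate number as a block, an alternative chosen after seeing the data, edgeR gave 0.00140. MYB9 shares 1447 bases on the opposite strand with DOT2 (AT5G16780), a splicing factor gene. DOT2 had 757, 1091 and 887 counts in the day 7 libraries, in which MYB9 had 0, and 1592, 1400 and 650 on day 12. DOT2 rose, with a log2 change of 0.54 (edgeR's quasi-likelihood test, adjusted p = 0.00635).

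MYB39, also called SUBERMAN, had 1, 1 and 0 counts on day 7 and 6, 8 and 2 on day 12. The day 12 libraries lay above those of day 7, with a ratio of 8.81 from 2 against 16 counts and a 95% counting interval from 2.07 to 79.0. MYB41, the factor that responds to abscisic acid and salt, had 5 counts in day 12 replicate 2 and 0 in the other 5 libraries. With no filter neither passed the edgeR test, the adjusted p being 0.0673 for MYB39 and 0.234 for MYB41.

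**Figure D1:**
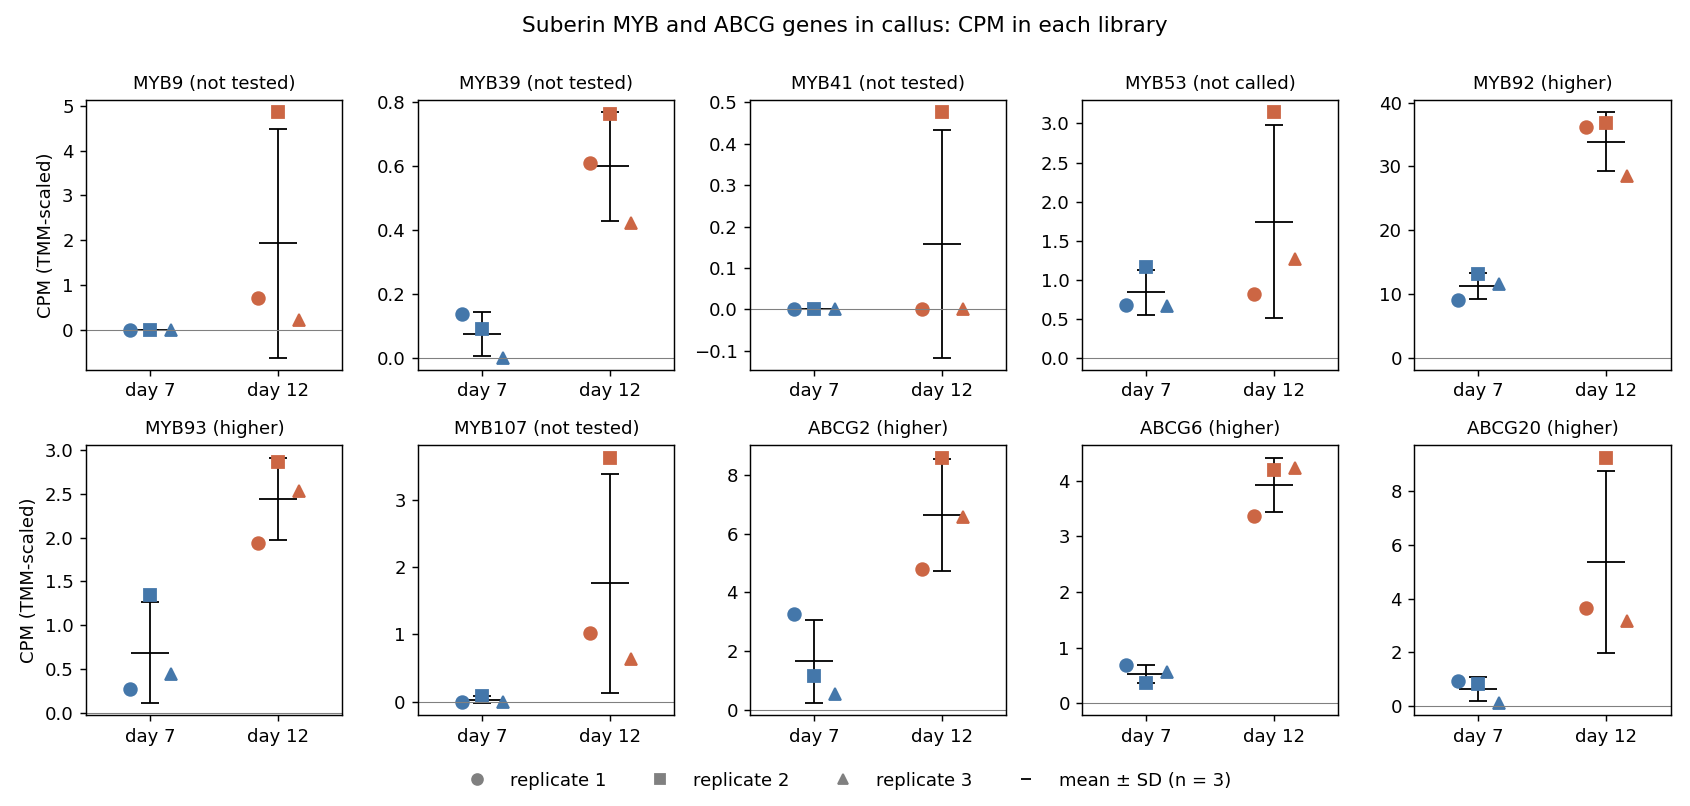
CPM (TMM-scaled) of each of the 10 genes in the 3 day 7 and 3 day 12 libraries, 1 panel per gene with its own axis. Points are libraries, with the replicate number given by the symbol, and bars are the mean ± SD of 3 libraries. Day 12 lay above day 7 without overlap in all panels except MYB41 and MYB53, and replicate 2 was the highest day 12 library in 9 of the 10 panels.

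All 3 exporter genes rose, and none had as many as 100 counts in any library. ABCG6 and ABCG20 passed the filter on low counts through day 12 alone, so they were tested because of the day on which they are high. ABCG6 had 5, 4 and 5 counts on day 7 and 33, 44 and 20 on day 12, or 0.679, 0.359 and 0.552 CPM against 3.36, 4.20 and 4.23 CPM. Its 3 libraries agreed closely within each day, and the days did not overlap. The mean rose from 0.530 ± 0.161 to 3.93 ± 0.492 CPM, a 7.41-fold change (log2 2.89 ± 0.40, edgeR's quasi-likelihood test, adjusted p = 0.00261).

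ABCG20 stood at 0.951, 0.807 and 0.111 CPM on day 7 and at 3.67, 9.25 and 3.17 CPM on day 12. The days did not overlap, and day 12 replicate 2 lay well above the other two. The mean rose from 0.623 ± 0.449 to 5.36 ± 3.38 CPM, an 8.71-fold change (log2 3.12 ± 0.66, edgeR's quasi-likelihood test, adjusted p = 0.0116). Without day 12 replicate 2 the log2 change was 2.46 (adjusted p = 0.0259).

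ABCG2, the near relative of ABCG20, stood at 3.26, 1.17 and 0.552 CPM on day 7 and at 4.79, 8.58 and 6.55 CPM on day 12. Day 7 replicate 1 held 24 of its day 7 counts and came near the lowest day 12 library, but the days did not overlap. The log2 change was 2.05 ± 0.55 (edgeR's quasi-likelihood test, adjusted p = 0.0282), a 4.14-fold rise, and it was 2.90 without day 7 replicate 1. The call was lost without day 7 replicate 2 (adjusted p = 0.0993) or 3 (0.0582) and without day 12 replicate 2 (0.0722) or 3 (0.0604). ABCG2 lies opposite the long noncoding RNA gene AT2G37362 over 2362 bases. The strand setting of the counting was not given, so how reads from the shared stretch were assigned is not known. AT2G37362 had 103, 209 and 156 counts on day 7 and 192, 183 and 106 on day 12 (log2 change 0.23, adjusted p = 0.305), more than ABCG2 in every library.

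Of the 6 tested members 5 rose and none fell, and 12.7% of all tested genes rose. The 2 values cannot be set against each other, because ABCG6 and ABCG20 had no day 7 library at the filter's level of 1.06 CPM and passed it through day 12 alone, and MYB93 had 1. MYB92 was the only tested member at that level in all 6 libraries. Every day 12 library lay above every day 7 library for 8 of the 10 members, 5 tested and 3 not. Over the 18364 tested genes that share was 21.2%, and over the 24994 loci with a count in any library it was 17.5%. The members' count is a description, since the genes were chosen with these values known. Without day 12 replicate 2, 3 members rose, namely MYB92, ABCG6 and ABCG20. The summed level of the 7 MYB genes was 10.2, 15.9 and 12.6 CPM on day 7 and 41.35, 52.6 and 33.6 CPM on day 12. The means stood in a ratio of 3.30, and MYB92 made up most of it. The 3 ABCG genes summed to 4.89, 2.33 and 1.22 CPM on day 7 and to 11.8, 22.0 and 13.95 CPM on day 12, with means in a ratio of 5.67. Day 7 replicate 2 was the highest day 7 library for MYB53, MYB92 and MYB93, while replicate 1 was the highest for each exporter.

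Per transcript length, MYB92 ranked first of the 10 genes in all 6 libraries, at 7.02, 14.4 and 11.1 TPM on day 7 and 35.9, 38.5 and 25.1 TPM on day 12. It stood above every other member on both days without overlap. MYB92 held 82.5% to 92.3% of the summed TPM of the 7 MYB genes on day 7, and 86.8%, 69.2% and 84.5% in day 12 replicates 1, 2 and 3. On day 7 the members after it were ABCG2 at 0.30 to 1.37 TPM, MYB53 at 0.47 to 1.43, MYB93 at 0.22 to 1.61, ABCG20 at 0.05 to 0.43, ABCG6 at 0.22 to 0.29 and MYB39 at up to 0.11, with the other 3 listed at 0. MYB53 ranked 2 or 3 of 10 in each day 7 library and 6 in each day 12 library. The day 12 order depended on the library. In replicates 1 and 3 the ranks from 3 to 9 were held by MYB93, ABCG6, ABCG20, MYB53, MYB107, MYB39 and MYB9. In replicate 2, ABCG20, MYB107 and MYB9 ranked 3, 4 and 5, ahead of MYB53, MYB93, ABCG6 and MYB39. In CPM, MYB9 ranged from 0.211 to 4.86 over the day 12 libraries and MYB107 from 0.634 to 3.62, while ABCG6 ranged from 3.36 to 4.23. MYB41 ranked last in all 3 day 12 libraries. ABCG2 was second in all 3 day 12 libraries. MYB39 and MYB107 are listed at 0 TPM in day 7 replicate 2, where each had 1 count.

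The members differed in how evenly the 3 day 12 libraries shared them. MYB9 was 6.82 times as high in day 12 replicate 2 as in replicate 1 (95% counting interval 3.08 to 17.8) and 23.0 times as high as in replicate 3 (3.95 to 926). For MYB107 the ratios were 3.56 (1.74 to 8.01) and 5.72 (1.81 to 28.9), with the same order of libraries, which MYB39, MYB92 and ABCG20 also had. MYB53 gave 3.86 (1.75 to 9.68) and 2.48 (1.03 to 7.25), and ABCG20 gave 2.52 (1.71 to 3.81) and 2.92 (1.68 to 5.41). MYB92 was nearly even, with ratios of 1.02 (0.879 to 1.18) and 1.29 (1.06 to 1.59), as was ABCG6 with 1.25 (0.777 to 2.02) and 0.993 (0.573 to 1.78). Among near relatives, MYB53 gave higher ratios than MYB92, though their intervals against replicate 3 overlapped. ABCG2 gave 1.79 (1.25 to 2.61) and 1.31 (0.862 to 2.04), below ABCG20 but with overlapping intervals. MYB9 and MYB107 were both uneven. These differences between genes were not tested.

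Day 12 replicate 2 was the highest day 12 library for 9 of the 10 members, for 34.3% of all tested genes and for 51.5% of the genes that rose. It was the deepest of the 3 day 12 libraries and had the lowest share of counts on ribosomal RNA loci, 0.422% against 1.82% and 3.90% in replicates 1 and 3, and on organelle loci, 0.236% against 1.15% and 3.53%. Their part in the pattern was not tested. Day 12 replicate 2 was also highest for 8 of 11 enzyme genes of suberin monomer synthesis and for 6 of the 7 abscisic acid response genes with counts. HAI1 (AT5G59220) and HAI2 (AT1G07430), phosphatase genes induced by abscisic acid, stood at 6.42, 17.4 and 3.38 CPM and at 1.32, 7.63 and 1.69 CPM in the day 12 libraries. Of the 8 Casparian strip genes with counts, day 12 replicate 2 was highest for 0, replicate 3 for 6 and replicate 1 for 2. CASP1 (AT2G36100), a scaffold protein of the strip, was 0.226 times as high in replicate 2 as in replicate 3 (0.0836 to 0.559). The part of the abscisic acid response in the members' values was not tested.

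**Figure D2:**
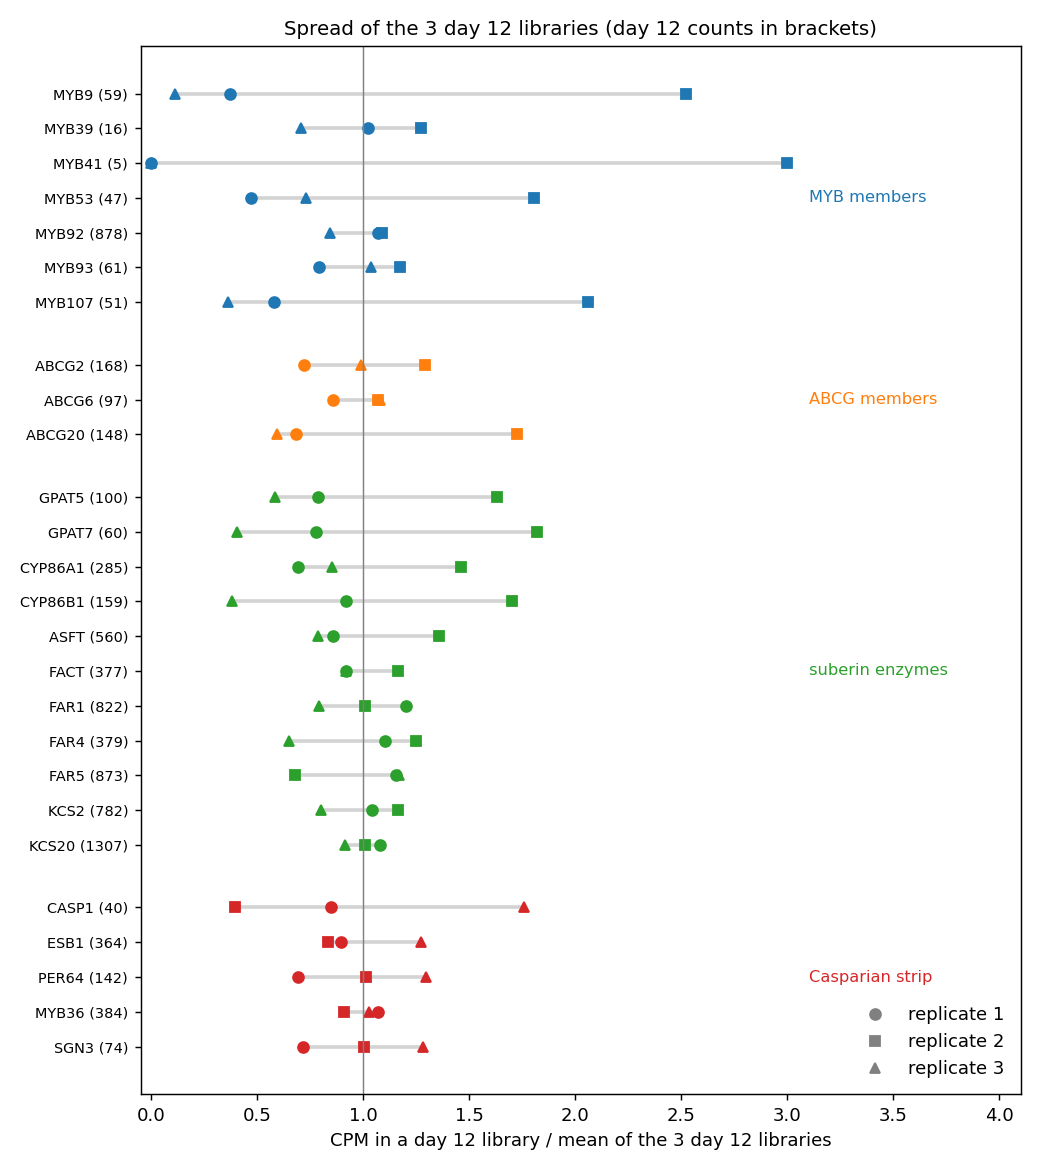
CPM of each gene in the 3 day 12 libraries divided by their mean, with replicates as symbols, the range as a grey bar and the summed day 12 counts in brackets; Casparian strip genes are drawn from 20 day 12 counts up. Replicate 2 (squares) lies to the right for MYB9, MYB53, MYB107 and ABCG20 and for GPAT5, GPAT7 and CYP86B1, and not for the Casparian strip genes.

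Of the 11 enzyme genes that make suberin monomers, 10 were tested, 6 rose and none fell, with a median log2 change of 2.10, and -0.0015 over all tested genes. For 2 of the 6, GPAT5 and CYP86B1, no day 7 library was at the filter's level, so they were tested through day 12 alone, and the count and median describe the tested genes only. Leaving out 1 library at a time gave 5 to 7 that rose. FACT (AT5G63560), which esterifies fatty alcohols to caffeate, rose from 2.85, 0.538 and 1.88 CPM to 13.5, 17.2 and 13.5 CPM (log2 3.14 ± 0.44, edgeR's quasi-likelihood test, adjusted p = 0.00333). GPAT5 (AT3G11430), the acyltransferase that joins fatty acids to glycerol, rose by a log2 change of 2.95 ± 0.61 (adjusted p = 0.00987). The fatty acid elongase genes KCS2 (AT1G04220) and KCS20 (AT5G43760), which also serve wax synthesis, had log2 changes of -0.65 and -0.23, and the reductase genes FAR1 (AT5G22500) and FAR5 (AT3G44550) -0.49 and 0.98, none of which passed. With the replicate block FAR1 fell (edgeR adjusted p = 0.0268). KCS2 fell by DESeq2 (adjusted p = 0.0284) and without day 7 replicate 2 (edgeR, 0.0160). FAR5 rose by DESeq2 (adjusted p = 0.00887) and by limma on log2(TPM + 1) (0.000342) and log2(TPM + 0.1) (0.000275). The 11 enzyme genes summed to 158 to 232 CPM on day 7 and 192 to 241 CPM on day 12, overlapping ranges in which KCS2, KCS20 and FAR1 had the highest levels on day 7.

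Among 9 Casparian strip genes 4 were tested and 3 rose, with a median log2 change of 1.79, a count that includes SGN3, which passed the filter through day 12 alone. The largest change was that of SGN3 (AT4G20140, named GSO1 in RefSeq), the receptor kinase that senses whether the strip is closed, from 0.136, 0.179 and 0.111 CPM to 2.24, 3.15 and 4.02 CPM (log2 4.28 ± 0.53, edgeR's quasi-likelihood test, adjusted p = 0.00202). Only 1 of the 4 rose without day 12 replicate 1 or 3. CASP1 and CASP2 had 0 counts in every day 7 library, and CASP5 had 0 in all 6. Of the regulators of endodermis identity, SCR (AT3G54220) fell, with a log2 change of -0.45 (adjusted p = 0.0215) and SHR (AT4G37650) had a change of -0.11 (adjusted p = 0.526). The call for SCR was lost without day 7 replicate 1 (adjusted p = 0.0606) or 3 (0.0751) and without day 12 replicate 2 (0.0548). SCR was not called in 6 of 19 alternative fits, among them limma on log2(TPM + 1) (adjusted p = 0.419).

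The nearest relatives gave mixed values. ABCG16 (AT3G55090), which acts with ABCG1 in pollen wall formation, rose from 0.815, 1.43 and 0.442 CPM to 4.07, 9.63 and 2.96 CPM (log2 2.61 ± 0.57, edgeR's quasi-likelihood test, adjusted p = 0.0122). Its call was lost without day 7 replicate 1 (adjusted p = 0.0574). ABCG1 (AT2G39350) fell, with a log2 change of -0.46 (adjusted p = 0.0249). That call was lost without day 7 replicate 1 (0.0638), day 7 replicate 2 (0.0874) or day 12 replicate 2 (0.0514). ABCG1 was not called in 7 of 19 alternative fits, among them limma on log2(TPM + 1) (adjusted p = 0.352). Its mean was 98.5 CPM on day 7 and 71.75 CPM on day 12, against 2.81 and 15.9 CPM for the exporter members summed. A place among the relatives does not exclude a part in suberin. ABCG19 (AT3G55130) had 39 day 7 counts and 6 day 12 counts, or a CPM ratio of 0.169 (95% counting interval 0.0586 to 0.403), and ABCG17 had 0 counts. Of the MYB relatives, MYB74 (AT4G05100) had a log2 change of 0.98 ± 0.39 (adjusted p = 0.0947). MYB74 rose without day 7 replicate 2 (edgeR, log2 1.56, adjusted p = 0.0247) and by limma on log2(TPM + 1) (0.0327) and log2(TPM + 0.1) (0.0270). It also rose by edgeR with the replicate block and no filter (0.0366), an alternative chosen after seeing the data. MYB49 (AT5G54230) was not tested, with a ratio of 2.64 (1.41 to 5.20), and MYB102 had 0 counts.

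Genes listed for the matching work in the cuticle, the lipid layer on the shoot surface, did not rise. A place in these lists does not exclude a part in suberin as well. Of 4 cuticle exporters 3 fell, with a median log2 change of -0.63, ABCG13 (AT1G51460) the most at -1.64 ± 0.25 (edgeR's quasi-likelihood test, adjusted p = 0.00324). Without day 12 replicate 2, 1 of the 4 fell, and by limma on log2(TPM + 1) also 1. Of 5 MYB regulators of wax and cutin 3 were tested and 1 fell, MYB96 (AT5G62470), with a log2 change of -0.99 ± 0.23 (adjusted p = 0.0148; 0.0564 without day 7 replicate 2). With the replicate block MYB94 (AT3G47600) fell as well, with a log2 change of -0.40 (edgeR adjusted p = 0.0315). The summed level of 5 shoot epidermis markers moved in the same direction, from 1978 to 2619 CPM on day 7 to 1022 to 1117 CPM on day 12. Of these markers 4 fell, of which LTP2 (AT2G38530), a lipid transfer protein gene, had the lowest adjusted p (log2 -1.22, edgeR, 0.00141). With the replicate block all 5 fell, ATML1 (AT4G21750) with an adjusted p of 0.0215 against 0.0775. By limma on log2(TPM + 1), 2 of the 5 markers fell. The part of the epidermis in the values of the cuticle genes was not tested.

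Of 5 xylem markers none rose or fell, summing to 34.0 to 69.0 CPM on day 7 and 37.4 to 80.45 CPM on day 12, and of 4 phloem markers 1 fell, the phloem lectin gene PP2-A1 (AT4G19840), with a log2 change of -2.45 (edgeR adjusted p = 0.00532). In the fit with replicate blocks, IRX3 (AT5G17420) and LAC4 (AT2G38080), genes of secondary wall synthesis, passed the edgeR test as higher, with a log2 change of 0.72 each. In that fit the xylem protease genes XCP1 (AT4G35350) and XCP2 (AT1G20850) passed as lower, with -0.89 and -0.72. By DESeq2 IRX3 rose as well (log2 change 0.74, adjusted p = 0.0316). Neither of the 2 tested of 4 root epidermis markers passed. Both tested mesophyll markers fell (1 without day 12 replicate 2), LHCB1.1 (AT1G29920), a chlorophyll-binding protein gene, with a log2 change of -3.39 (edgeR adjusted p = 0.00388), their list of 3 summing to 16.7 to 39.0 CPM on day 7 and 6.76 to 10.4 CPM on day 12. Casparian strip genes, which mark the endodermis, summed to 12.3 to 20.6 CPM on day 7 and 38.3 to 52.6 CPM on day 12. Of 8 abscisic acid response genes 5 were tested and 1 rose, ABF3 (AT4G34000), a bZIP factor of that response (log2 0.45 ± 0.10, edgeR's quasi-likelihood test, adjusted p = 0.0149). That call was lost without day 7 replicate 1 (adjusted p = 0.0668) or 2 (0.0571), and by limma on log2(TPM + 1) (0.192; 0.317 with no filter) and log2(TPM + 0.1) (0.188). HAI2 rose by DESeq2 (adjusted p = 0.0358) and without day 12 replicate 1 (edgeR, 0.0465), and ABI2 (AT5G57050), another phosphatase gene of that response, rose without day 12 replicate 3 (0.0306), so that 2 of the 5 rose in each of these fits. The part of these tissues and of this response in the members' values was not tested.

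**Figure D3:**
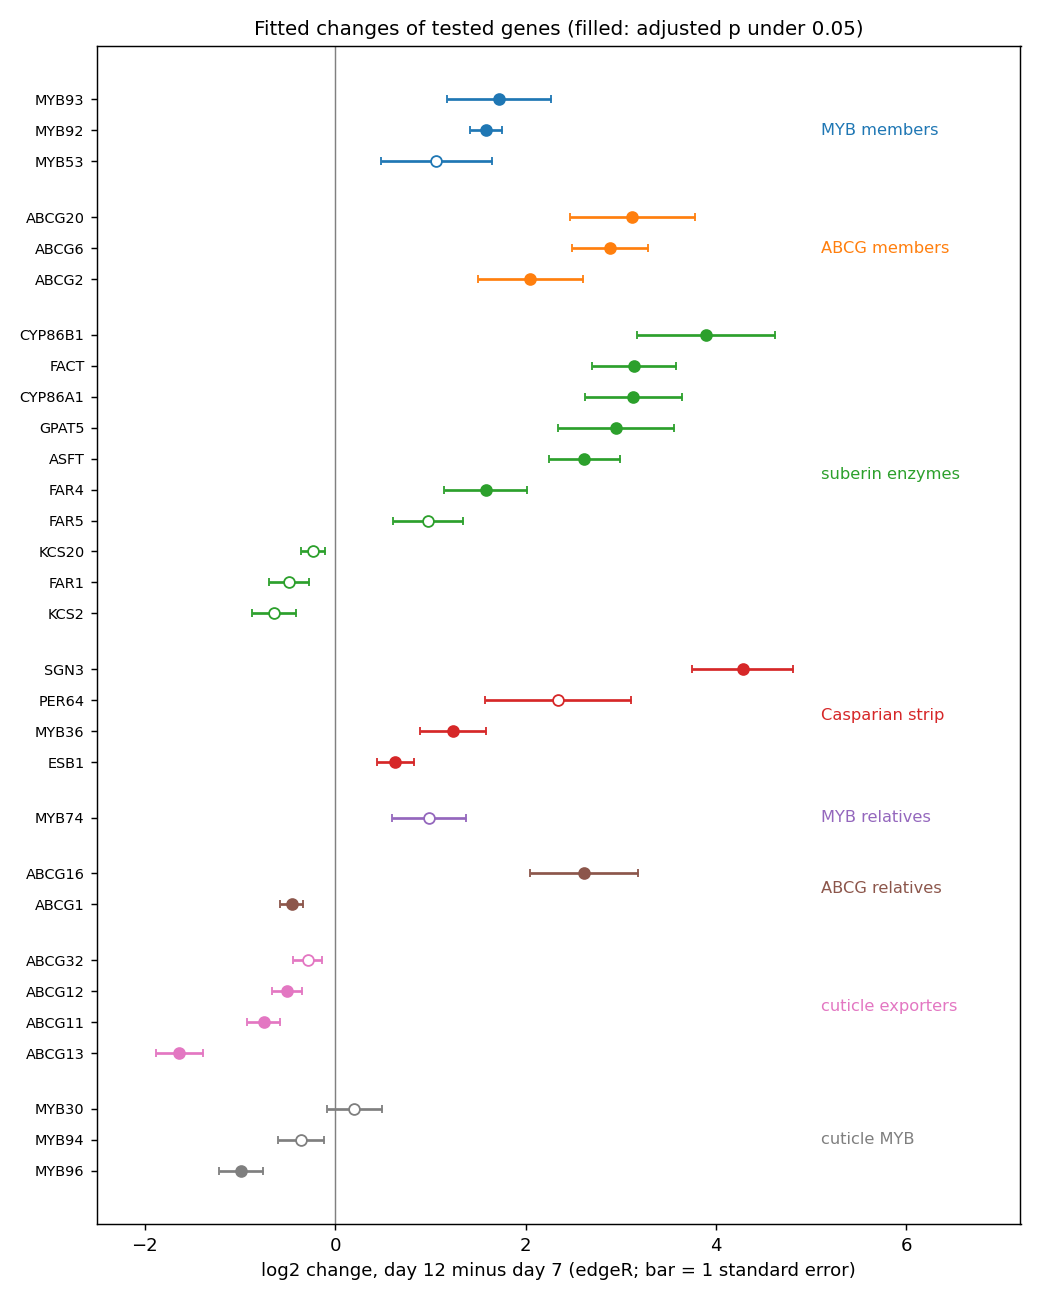
Fitted log2 change, day 12 minus day 7, of the tested members, suberin enzymes, Casparian strip genes, near relatives and cuticle genes. Bars are 1 standard error and filled points have an adjusted p under 0.05. The 6 members lie between 1.06 and 3.12, beside the enzymes that rose, while the filled points of the cuticle groups lie below 0.

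The genes whose level followed MYB92 most closely over the 6 libraries were found by the mean absolute difference of log2 CPM, centred on each gene's mean, among 7965 tested genes with a RefSeq symbol. They were the cyclin-dependent kinase inhibitor ICK1 (AT2G23430) at 0.102, the syntaxin SYP23 (AT4G17730) at 0.103, OBE2 (AT5G48160) at 0.107, GDPD2 (AT5G41080) at 0.107 and SUMM2 (AT1G12280) at 0.109, where the median gene stood at 0.801. For ABCG2 they were the transporter gene ABCG23 (AT5G19410) at 0.157, MAP18 (AT5G44610) at 0.197, MLP-300B (AT3G16440) at 0.206, MAP70-5 (AT4G17220) at 0.271 and CNGC10 (AT1G01340) at 0.324, with a median of 1.11. The members themselves were left out of this search. None of the 10 was an enzyme gene of suberin monomer synthesis. Only 10 such genes were tested, a small part of the 7965 compared, so their absence is not a result about the members. The points share the same 6 libraries and their scaling.

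Short motifs were searched on both strands from 250 bases before to 50 after the start of each member and of 27443 genes in all. ABCG2 was the only member with ACCTACC, an AC-type element bound by many MYB factors, which 1.38% of all promoters hold. The 250 bases before its start (chr2:15675921-15676170, minus strand, RefSeq TAIR10.1), 5′ to 3′, carry it 155 bases before the start and TTGAC, the core of the W-box, nearer to it, both in capitals.
ABCG2: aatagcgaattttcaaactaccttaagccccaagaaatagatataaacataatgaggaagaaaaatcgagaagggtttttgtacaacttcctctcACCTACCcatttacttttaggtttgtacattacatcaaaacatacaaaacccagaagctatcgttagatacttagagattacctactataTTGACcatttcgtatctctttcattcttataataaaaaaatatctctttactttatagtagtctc
The related AC-type elements ACCAACC and ACCTAAC, in 3.29% and 2.88% of all promoters, were in no member's window. ACGTG, the core of the abscisic acid response element, was in 4 of the 10 (MYB41, MYB53, MYB92 and MYB107) and in 26.7% of all promoters. TTGAC was in 7 of the 10 and in 50.5% of all, and the MYB core CNGTTA in 1, MYB39, and in 30.3% of all.

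Over 19 alternatives of scaling, filter, test, unit and left-out library, MYB92, ABCG6 and ABCG20 rose in every one. ABCG6 and ABCG20 passed the reported fit's count filter through day 12 alone, which limits what their calls show. MYB92 also kept nearly the same size, with log2 changes of 1.46 to 1.72 and a highest adjusted p of 0.0107. ABCG2 was called in 15 of the 19 and MYB93 in 7. MYB53 was called in 0.

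**Figure D4:**
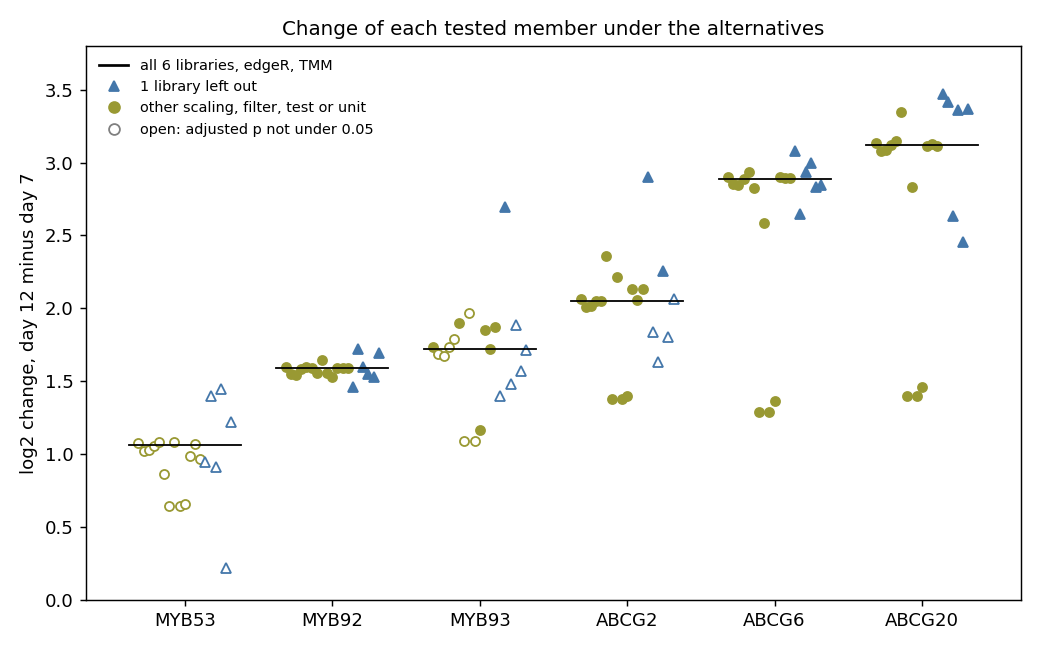
Log2 change of the 6 tested members under each alternative. Black lines are the fit to all 6 libraries with edgeR and TMM factors, triangles leave out 1 library, circles are other settings, and open symbols have an adjusted p of 0.05 or more. MYB92 stays between 1.46 and 1.72, while MYB53 falls to 0.22 without day 12 replicate 2; the low circles of the ABCG genes, MYB53 and MYB93 are fits on log2(TPM + 1), a scale that understates changes of genes at low levels.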

How the data were processed

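Total RNA of callus was extracted with TransZol Up and made into TruSeq RNA libraries, per the labels' protocols. The authors deposited a table of raw counts and a table of TPM values over the same loci. The submitters' processing notes name STAR 2.7.10a, RSEM 1.3.1 and TAIR10. How each table was made, whether counting used strand, and how reads with several matches were treated is not stated in the labels or headers. A TPM of 0 beside 1 count shows that the tables were not made by the same counting.

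The deposited counts were filtered with filterByExpr (minimum count 10), scaled by TMM (factors 0.960 to 1.04) and tested with edgeR 4.0.16 in R 4.3.3, by robust quasi-likelihood fits with day as the only term and Benjamini-Hochberg adjustment at 0.05 over 18364 genes; all 6 libraries entered. CPM are TMM-scaled. Counting intervals are exact, at 95%, and cover counting error only. All replicate pairs differed beyond counting noise (chi-square per degree of freedom 10.4 to 43.9). Same-numbered libraries deviated alike from their day means (correlations across genes of 0.151, 0.156 and 0.244, against -0.162 to 0.00563 for other pairs). The labels do not explain this likeness. The reported fit left the replicate number out, and a second fit held it as a block.

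Alternatives covered scaling, count filter, DESeq2 1.42.0, limma 3.58.1 on voom weights, limma on log2 TPM with a pseudocount of 1 or 0.1 (mean TPM of 1 or more, or no filter), TPM rescaled without 4 ribosomal RNA loci, removal of organelle loci, the block and the loss of each library. The procedure was tested on simulated counts. Changes were simulated only in genes above a mean count that most members did not reach, so this test does not cover those members. Coordinates, exons and sequences come from RefSeq TAIR10.1, and coding sequences and upstream regions were aligned with Biopython 1.88; a planned comparison of protein sequences was not run, and the values of 1 Casparian strip gene are not reported here. Named genes are the 10 members, genes of the 13 lists beside them, with at least the gene of lowest adjusted p among those called, and the 5 genes most like the MYB and the ABCG member of highest mean TPM. Members and lists were chosen with earlier results of these data known.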

Additional observations from a re-analysis of the deposited data

How the results depend on the processing

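In the reported fit 5 of 6 tested members rose, and 0 fell under any alternative. The replicate block left it at 5 and changed no tested member's call (2640 genes higher and 2527 lower over all genes). It was 4 with DESeq2, library sizes alone or upper-quartile factors, where MYB93 missed the threshold (adjusted p = 0.0504, 0.0565 and 0.0507). By limma it was 4 of 7 on log2(TPM + 0.1) and 4 of 10 on log2(TPM + 1) with no filter. It was 5 of 10 by edgeR with no count filter and 5 of 7 by limma on log2(TPM + 1). In these 2 fits MYB107 was called and MYB93 was not (adjusted p = 0.0520 and 0.0510 for MYB93). With no filter and the block, an alternative chosen after seeing the data, MYB9 and MYB107 joined for 7 of 10. Leaving out 1 library gave 3 to 5 members that rose, MYB107 among them without day 7 replicate 1 or 3 or day 12 replicate 3, where it passed the filter. Over all genes this gave 1281 to 2286 higher and 1248 to 2056 lower. Limma on log2(TPM + 1) gave 1518 higher and 572 lower, on log2(TPM + 0.1) 1496 and 573, and on log2(TPM + 1) with no filter 484 and 209. After TPM was rescaled without the 4 ribosomal RNA loci, log2(TPM + 1) gave 2045 and 1771. The cause of the lower counts with no filter was not tested. The log2 ratio of summed CPM was 1.72 for the MYB genes (1.54 to 1.90 with 1 library left out) and 2.50 for the ABCG genes (2.14 to 3.17). Depth limits MYB9, MYB39, MYB41 and MYB107 most, since 3 counts are up to 0.609 CPM and most of their libraries held 10 counts or fewer.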
